A study of Mus musculus with 6 samples.

Results

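Transcripts of the interleukin-15 (IL-15) trans-presentation system were described in CD11b-enriched cerebellar microglia of Fmr1 knockout mice, which model fragile X syndrome. The set holds 4 of the 23491 gene symbols in the deposited count table: Il15, Il15ra, Il2rb and Il2rg. They were chosen by symbol, with the difference between poly(I:C) and saline already known for these libraries, so their own differences are given as a description and carry no p-value. All 4 had enough reads to enter the fit across genes.

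The libraries came from Fmr1 knockout mice injected intraperitoneally with poly(I:C), a synthetic double-stranded RNA that imitates a viral infection (3 libraries), and from Fmr1 knockout mice that received saline, called sham in the sample titles (3 libraries). Both groups carry the knockout and no wild-type group is included. The sources used here do not give the dose, the interval after injection, or the age, sex and strain of the animals. Nor is it stated that each library came from its own animal, so the standard errors and p-values describe variation among libraries, part of which may be technical. CD11b beads also retain monocytes, neutrophils and other macrophages.

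IL-15 is a cytokine of the helical bundle family that keeps natural killer (NK) cells and memory CD8 T cells alive. It is unusual in being handed from cell to cell on a receptor: IL-15 binds the IL-15 receptor alpha chain inside the producing cell, and the complex is displayed at the surface to a neighbouring cell that carries the IL-2 receptor beta chain and the common gamma chain. Myeloid cells are typical presenting cells, and interferons are known inducers of both the cytokine and the alpha chain.

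Each poly(I:C) library held between 33710545 and 33781938 counts and each saline library between 34608620 and 34899835. Fmr1 itself had 2205, 1484 and 1897 counts in poly(I:C) replicates 1, 2 and 3 and 1243, 1336 and 1375 counts in saline replicates 1, 2 and 3. Since the disrupted part of the gene is not given, this does not test the genotype. A pair of libraries stood apart. Saline replicate 1 had a summed level of 10 neutrophil markers of 20045 CPM (read counts relative to a fixed library size). The sum was 460 to 2154 CPM with poly(I:C) and 2361 and 2266 CPM in saline replicates 2 and 3. Poly(I:C) replicate 1 had the highest summed level of 8 choroid plexus markers, 12158 CPM. Poly(I:C) replicates 2 and 3 had 5324 and 6081 CPM, and the saline libraries 2629 to 5863 CPM. Microglial markers were abundant in every library, with 11 of them summing to between 30270 and 41576 CPM with poly(I:C) and between 38382 and 44161 CPM in saline, and lowest in poly(I:C) replicate 1.

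Among the members, the transcript for the presenting receptor chain was about doubled with poly(I:C), while that for the ligand differed little. Il15ra averaged 40.4 ± 1.17 CPM with poly(I:C) and 18.6 ± 1.08 CPM in saline (SD, n = 3 each). Il15 averaged 14.5 ± 1.48 CPM with poly(I:C) and 12.7 ± 1.60 CPM in saline (SD, n = 3 each). The signalling chains went in different directions and were spread widely within groups. Il2rg averaged 25.8 ± 7.98 CPM with poly(I:C) and 15.5 ± 6.22 CPM in saline, and Il2rb 2.12 ± 0.347 CPM with poly(I:C) and 3.46 ± 1.44 CPM in saline (SD, n = 3 each). In edgeR's quasi-likelihood fit across 14727 genes, Il15ra was the 1 member called, and it was called higher; genes called higher at an adjusted p under 0.05 made up 0.883% of those tested, and genes called lower 0.0747%. Nothing is read from that count, because the members were chosen with this contrast known.

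**Figure D1:**
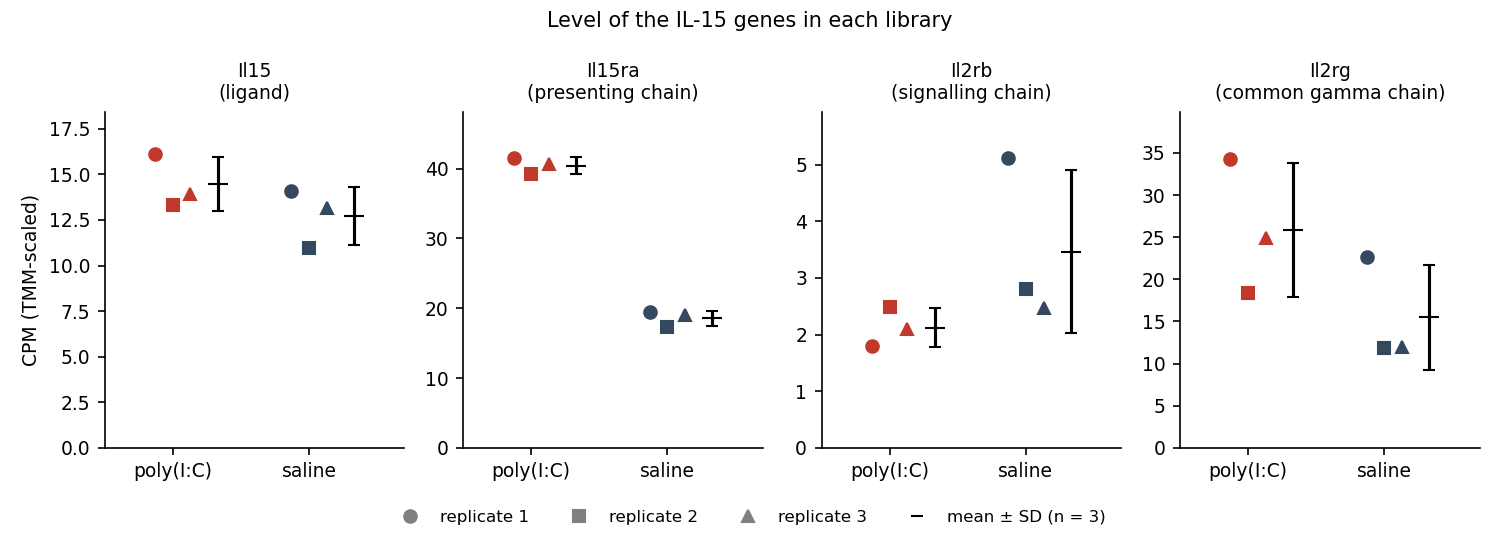
Level of each member in CPM (y axis, linear, from 0, with its own scale in each panel) in the 3 poly(I:C) and 3 saline libraries (x axis). Symbols are replicates 1, 2 and 3, and bars are the mean ± SD. The Il15ra groups lie far apart, at 39.2 CPM and above with poly(I:C) and at 19.4 CPM and below in saline, while the other members overlap between groups.

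Il15 encodes the ligand. It had 568, 451 and 485 counts in poly(I:C) replicates 1, 2 and 3, against 463, 380 and 446 counts in saline replicates 1, 2 and 3. Scaled to library size these were 16.1, 13.3 and 13.9 CPM with poly(I:C) and 14.1, 11.0 and 13.1 CPM in saline. The groups overlapped, since saline replicate 1 was above poly(I:C) replicates 2 and 3. The fitted log2 difference was 0.18 (SE 0.15), a 1.14-fold higher level with poly(I:C), and 67.6% of tested genes had a log2 difference no larger. The log2 difference stayed between 0.085 and 0.26 over the 15 alternative fits.

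Il15ra encodes the alpha chain, which binds IL-15 with high affinity and carries it to the surface of the presenting cell. It had 1461, 1326 and 1412 counts in poly(I:C) replicates 1, 2 and 3, against 638, 601 and 643 counts in saline replicates 1, 2 and 3. The scaled levels were 41.5, 39.2 and 40.6 CPM with poly(I:C) and 19.4, 17.3 and 19.0 CPM in saline. Every poly(I:C) library was above every saline library, as for 14.0% of all tested genes; a further 14.3% had every poly(I:C) library below every saline library. The log2 difference was 1.12 (SE 0.09), or 2.18-fold, and 93.9% of tested genes had a difference no larger. The spread within groups was small, also with the libraries that stood apart by their neutrophil and choroid plexus markers. With both of them left out the log2 difference was 1.16 (SE 0.11).

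The RefSeq promoter table (build GRCm38.p6) lists sequences for 2 of the 4 members, with 2 annotated starts for Il15ra and 1 for Il2rg. The windows run from 250 bases before a start to 50 bases after it. They were searched on both strands for the core of the interferon-stimulated response element (GAAANNGAA), which interferon-activated STAT and IRF factors bind, for the gamma-activated site (TTCNNNGAA), which STAT dimers bind, and for a kappa B site of NF-kB (GGANTTTCC). The interferon-stimulated response element was matched once in the window of each Il15ra start. The first match, on the minus strand, begins 149 bases before the upstream start, in the stretch chr2:11705043-11705292 of the plus strand shown here with the match in capitals.

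Il15ra, upstream start: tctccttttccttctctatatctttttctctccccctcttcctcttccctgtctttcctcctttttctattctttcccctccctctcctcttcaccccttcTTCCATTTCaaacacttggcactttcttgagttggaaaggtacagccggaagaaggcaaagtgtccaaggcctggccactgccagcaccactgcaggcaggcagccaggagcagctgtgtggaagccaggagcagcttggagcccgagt

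The second match is on the plus strand and begins at base 31 after the downstream start, within chr2:11705732-11705760, and is shown in capitals with its neighbouring bases.

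Il15ra, downstream start: aagcaaaagcGAAAGCGAAtactccttag

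This motif core occurs in 7.13% of the 32851 RefSeq windows when the 250 bases before the start are searched and in 8.56% when all 300 are, so a match alone is a common feature. No gamma-activated site or kappa B match of these letters was found in the Il15ra windows, and none of the 3 motifs in the Il2rg window. The share of all 300-base windows with a gamma-activated site was 8.30% and with a kappa B site 1.25%. These matches are letters in a sequence, and whether any factor binds them was not measured.

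Relative to the ligand, the presenting chain was more abundant with poly(I:C). The ratio of Il15ra to Il15 counts, which needs no scaling between libraries, was 2.57, 2.94 and 2.91 in poly(I:C) replicates 1, 2 and 3 and 1.38, 1.58 and 1.44 in saline replicates 1, 2 and 3. It averaged 2.81 ± 0.205 with poly(I:C) and 1.47 ± 0.104 in saline (SD, n = 3 each), and the groups did not overlap.

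Il2rg encodes the common gamma chain, shared by the receptors for IL-2, IL-4, IL-7, IL-9, IL-15 and IL-21. It had 1205, 621 and 866 counts in poly(I:C) replicates 1, 2 and 3, against 746, 412 and 405 counts in saline replicates 1, 2 and 3. The scaled levels were 34.2, 18.4 and 24.9 CPM with poly(I:C) and 22.7, 11.9 and 11.9 CPM in saline. Replicate 1 was the highest library in both groups, and saline replicate 1 was above poly(I:C) replicate 2, so the groups overlapped. The log2 difference was 0.74 (SE 0.33), or 1.67-fold, with 88.4% of tested genes no larger, and Il2rg was not called. It was called with limma-voom and sample quality weights, at a log2 difference of 0.92 (SE 0.20), and with replicate 1 of both groups left out, at 0.88 (SE 0.17). Over all genes those fits called 2876 and 569 genes, against 141 in the main fit, so nothing is read from these calls. Without saline replicate 1 alone the log2 difference was 1.10 (SE 0.24), and without poly(I:C) replicate 1 alone it was 0.50 (SE 0.33). Saline replicate 1 had the highest neutrophil marker sum. Poly(I:C) replicate 1 had the highest choroid plexus sum, and also the highest neutrophil sum of its group, 2154 CPM. The part of these cells in the Il2rg level was not tested.

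Il2rb encodes the beta chain shared by the IL-2 and IL-15 receptors, which on NK and T cells carries much of the signal. It was the least abundant member, with 63, 84 and 73 counts in poly(I:C) replicates 1, 2 and 3 and 168, 97 and 84 counts in saline replicates 1, 2 and 3. The scaled levels were 1.79, 2.48 and 2.10 CPM with poly(I:C) and 5.11, 2.80 and 2.48 CPM in saline. Saline replicate 1 was far above the other libraries, whereas poly(I:C) replicate 2 and saline replicate 3 were alike, so the groups touched. The log2 difference was -0.70 (SE 0.36), a 1.63-fold lower level with poly(I:C), with 5.61% of tested genes at or below it, and Il2rb was not called. Without saline replicate 1 the log2 difference was -0.31 (SE 0.33), and with replicate 1 of both groups left out it was -0.18 (SE 0.33). In bulk libraries like these, fewer cells of a type and less RNA per cell cannot be told apart.

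**Figure D2:**
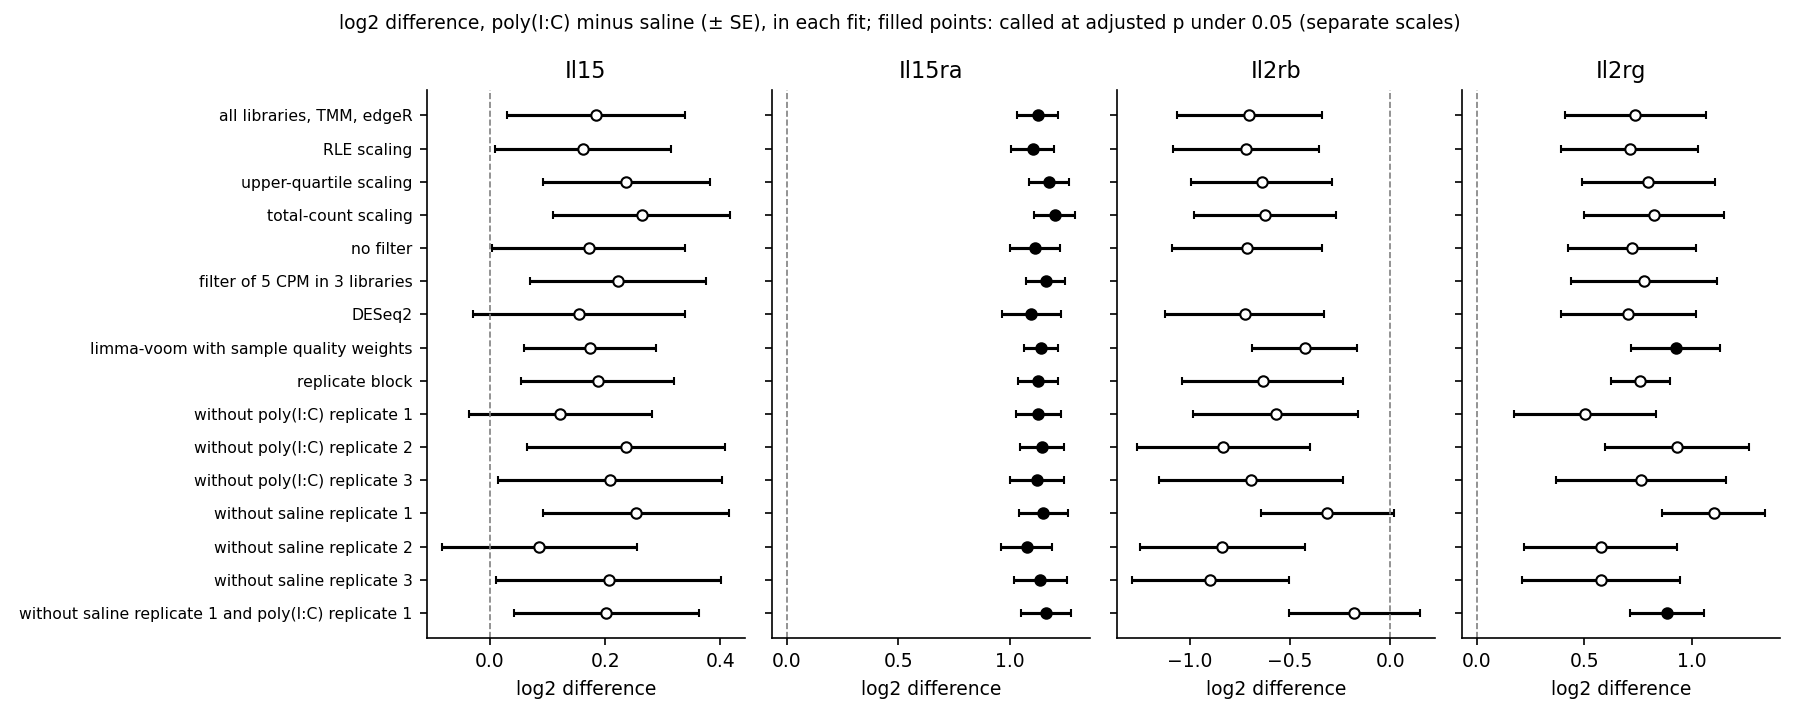
Fitted log2 difference of each member, poly(I:C) minus saline (x axis, own scale in each panel), with its SE, in each fit (rows); filled points were called at an adjusted p under 0.05. Il15ra lies between 1.07 and 1.20 in every alternative fit, Il2rb approaches 0 in the fits without saline replicate 1, and Il2rg moves between 0.50 and 1.10.

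The levels of the members were compared per kilobase of exon, with lengths from GENCODE M21. With poly(I:C), Il2rg stood at 10.8 ± 3.34, Il15ra at 9.09 ± 0.263, Il15 at 6.40 ± 0.653 and Il2rb at 0.495 ± 0.0809 CPM per kilobase (SD, n = 3). In saline, Il2rg stood at 6.50 ± 2.61, Il15 at 5.63 ± 0.706, Il15ra at 4.18 ± 0.243 and Il2rb at 0.808 ± 0.335 CPM per kilobase (SD, n = 3). Il2rb was the lowest member in every library. The means of Il15ra with poly(I:C), and of Il15 and Il15ra in saline, lay within the SD of Il2rg. Within libraries and by this length, Il2rg was above Il15ra in saline, at 9.50, 4.98 and 5.00 against 4.36, 3.90 and 4.26 (replicates 1, 2 and 3). Its order against Il15 in saline, and against Il15ra with poly(I:C), differed between libraries. The order of Il15ra and Il15 in saline depends on the length used: with the longest annotated transcript in place of all exons, Il15ra was at 8.02 ± 0.467 and Il15 at 6.67 ± 0.837 per kilobase in saline. With poly(I:C), Il15ra was above Il15 by either length, at 17.5 ± 0.505 against 7.58 ± 0.774 with the longest transcript. By the longest transcript Il2rg stood at 15.5 ± 4.78 per kilobase with poly(I:C) and at 9.29 ± 3.72 in saline. The mean of Il15ra lay within the SD of Il2rg in both groups, above the Il2rg mean with poly(I:C) and below it in saline.

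The genes whose levels ran most like each member over the 6 libraries, by Pearson correlation of log2(CPM + 1), differed between members. For Il15ra they were H2-T24, a nonclassical MHC class I gene (r = 0.999), Rnf213, a large interferon-inducible ubiquitin ligase gene (r = 0.998), and Irf9, the DNA-binding part of the complex that drives interferon-stimulated genes (r = 0.998). Irf9 had 196, 199 and 196 CPM with poly(I:C) and 95.0, 81.5 and 89.6 CPM in saline (replicates 1, 2 and 3). Its order of libraries was that of Il15ra within saline and the opposite within poly(I:C). H2-T24 has close paralogs with which it may share reads. For Il15 they were Skp2 (r = 0.997), a ubiquitin ligase subunit of the cell cycle, Tnf (r = 0.994), an inflammatory cytokine, and the transcriptional kinase gene Cdk12 (r = 0.985). Tnf had 89.8, 48.8 and 56.0 CPM with poly(I:C) and 54.0, 23.5 and 40.5 CPM in saline, with saline replicate 2 lowest, as for Il15.

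For Il2rg the most alike genes were Prps1, an enzyme of nucleotide synthesis (r = 0.996), the Polycomb gene Pcgf5 (r = 0.996), and Uxs1, an enzyme of sugar nucleotide synthesis (r = 0.995), all highest in poly(I:C) replicate 1. For Il2rb they were Cdk2ap2 (r = 0.994), the actin-binding profilin gene Pfn1 (r = 0.992) and the antioxidant enzyme gene Gpx1 (r = 0.991). Each of these had its highest level in saline replicate 1, where Gpx1 stood at 451 CPM, while the poly(I:C) libraries held 237 to 288 CPM and saline replicates 2 and 3 held 294 and 288 CPM. These correlations share the same 6 libraries, 2 groups and library-specific cell mixtures, and are a description.

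Genes around the receptor were taken from lists written with earlier results of these libraries known. Counts of calls in these lists, and the p-values of their genes, are therefore a description, and no enrichment is read from them. Among 8 regulators known to act on Il15 or Il15ra, 3 were called higher and 0 lower, with a median log2 difference of 0.35. Over all tested genes 0.883% were called higher and 0.0747% lower, and the median was 0.0098. The regulators called were Irf7, Stat2 and Irf9, interferon-activated transcription factors. Stat2 averaged 222 ± 32.3 CPM with poly(I:C) and 67.0 ± 0.475 CPM in saline (log2 difference 1.73, SE 0.11, edgeR adjusted p = 0.00108). Irf9, which joins Stat2 in the complex that binds the interferon-stimulated response element, had a log2 difference of 1.15 (SE 0.08, edgeR adjusted p = 0.00145), close in size to that of Il15ra. H2-T24 and Rnf213, also among the genes most alike to Il15ra, had larger log2 differences of 2.51 (SE 0.11) and 2.20 (SE 0.12). Whether Irf9 acts on Il15ra in these cells was not tested. Irf7, which amplifies interferon production, had a log2 difference of 3.97 (SE 0.26, edgeR adjusted p = 0.00108).

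The remaining regulators did not pass. Of all 8, 4 had every poly(I:C) library above every saline library and 2 had every one below, as did 14.0% and 14.3% of tested genes. Irf1, a factor needed in mice for IL-15 production in bone marrow stroma, averaged 139 ± 15.4 CPM with poly(I:C) and 96.9 ± 10.8 CPM in saline (log2 difference 0.52, SE 0.12, edgeR adjusted p = 0.121), with every poly(I:C) library above every saline library. The NF-kB genes Rela and Nfkb1 had log2 differences of -0.43 (SE 0.11, edgeR adjusted p = 0.140) and -0.30 (SE 0.12, edgeR adjusted p = 0.211), each with every poly(I:C) library below every saline library. Irf3, which acts directly below double-stranded RNA sensors, had -0.26 (SE 0.10, edgeR adjusted p = 0.226). Adam17, a protease that sheds membrane receptors including IL-15 receptor alpha, had 0.17 (SE 0.09, edgeR adjusted p = 0.312).

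Of the receptor chains that pair with the common gamma chain or belong to its family, Il4ra, Il21r, Il7r, Il13ra1 and Crlf2 stood above Il2rb in level per kilobase, while Il9r had 1 count over the 6 libraries. Per kilobase of exon, Il4ra stood at 35.3 ± 2.08 CPM with poly(I:C) and 34.1 ± 3.89 CPM in saline, Il21r at 32.8 ± 0.536 CPM with poly(I:C) and 31.9 ± 6.21 CPM in saline, and Il7r at 19.8 ± 0.908 CPM with poly(I:C) and 15.7 ± 1.47 CPM in saline (SD, n = 3 each). Il13ra1, a partner of the IL-4 receptor alpha chain, was at 49.3 ± 5.65 CPM with poly(I:C) and 47.1 ± 3.86 CPM in saline, again per kilobase (SD, n = 3 each). Of the 6 tested members of this list 0 were called by edgeR, with 2 at an unadjusted p under 0.05, and the median log2 difference was 0.057. The share of all tested genes under that unadjusted p was not counted. Nothing is therefore read from such counts, here or for the lists below. Those with the smallest p were Il7r (log2 difference 0.34, SE 0.09, edgeR adjusted p = 0.153) and Crlf2, the thymic stromal lymphopoietin receptor, at 9.33 ± 2.30 CPM with poly(I:C) and 17.2 ± 4.91 CPM in saline (log2 difference -0.88, SE 0.28, edgeR adjusted p = 0.177). Tslp, its ligand, had a log2 difference of 0.72 (SE 0.55, edgeR adjusted p = 0.450), and Il13ra1 one of 0.064 (SE 0.11, edgeR adjusted p = 0.748).

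Il2ra, the private alpha chain of the IL-2 receptor, had too few reads for the main fit. It had 38, 9 and 43 counts in poly(I:C) replicates 1, 2 and 3 and 2, 1 and 2 counts in saline replicates 1, 2 and 3. Each poly(I:C) library was above each saline library. The ligand genes Il21, Il7 and Il4 had few reads. Il21 had 1 count in all, Il7 between 0 and 2 counts per library, and Il4 0, 0 and 4 counts with poly(I:C) and 17, 1 and 8 counts in saline. At these depths 3 counts correspond to 0.0852 to 0.0912 CPM, and such floors cover counting error only. Il2 and Il9 had no row in the count table used here, so they were not analysed.

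Below the receptor, 0 of 15 tested kinases, adaptors and STAT factors were called by edgeR. An unadjusted p under 0.05 was found for 8, and the share of all tested genes under it was not counted. The median log2 difference was -0.26, with 8 genes lower and 1 higher in every poly(I:C) library than in every saline library, as were 14.3% and 14.0% of all tested genes. The 4 with the smallest p all had negative differences: the adaptor gene Grb2 (-0.28, SE 0.07, edgeR adjusted p = 0.140), the kinase gene Syk (-0.36, SE 0.09, edgeR adjusted p = 0.147), the kinase gene Akt1 (-0.50, SE 0.14, edgeR adjusted p = 0.160) and Stat5b, one of the STAT factors that IL-15 activates (-0.33, SE 0.09, edgeR adjusted p = 0.162). Jak1 and Jak3, the kinases bound to the beta and gamma chains, had log2 differences of -0.20 (SE 0.09, edgeR adjusted p = 0.232) and -0.12 (SE 0.11, edgeR adjusted p = 0.522). Jak3, which works with the gamma chain alone, stood at 168 ± 21.3 CPM with poly(I:C) and 183 ± 10.5 CPM in saline. With replicate 1 of both groups left out, the median of the 15 was -0.11.

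Among 11 targets and feedback genes of STAT5, 0 were called by edgeR, with a median log2 difference of 0.12. An unadjusted p under 0.05 was found for 3, and the share of all tested genes under it was not counted. The median was 0.0056 without poly(I:C) replicate 1, 0.0115 without saline replicate 3, 0.0236 without saline replicate 2 and 0.24 without poly(I:C) replicate 2 or saline replicate 1, and the filter of 5 CPM in 3 libraries, which kept 8 of the genes, gave -0.0128. Bcl2, a survival gene that IL-15 maintains in lymphocytes, averaged 22.0 ± 6.50 CPM with poly(I:C) and 11.3 ± 0.254 CPM in saline (log2 difference 0.95, SE 0.22, edgeR adjusted p = 0.119). The pro-apoptotic gene Bcl2l11 had a log2 difference of -0.46 (SE 0.12, edgeR adjusted p = 0.146), Ccnd2, a cyclin gene, 0.83 (SE 0.28, edgeR adjusted p = 0.188), and the feedback inhibitor gene Socs1 0.42 (SE 0.25, edgeR adjusted p = 0.351). DESeq2 and limma-voom each called Bcl2, Ccnd2 and Bcl2l11, in fits that called 1005 and 2876 genes over all genes. Cish, a direct STAT5 target, had a log2 difference of 0.20 (SE 0.30, edgeR adjusted p = 0.706).

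**Figure D3:**
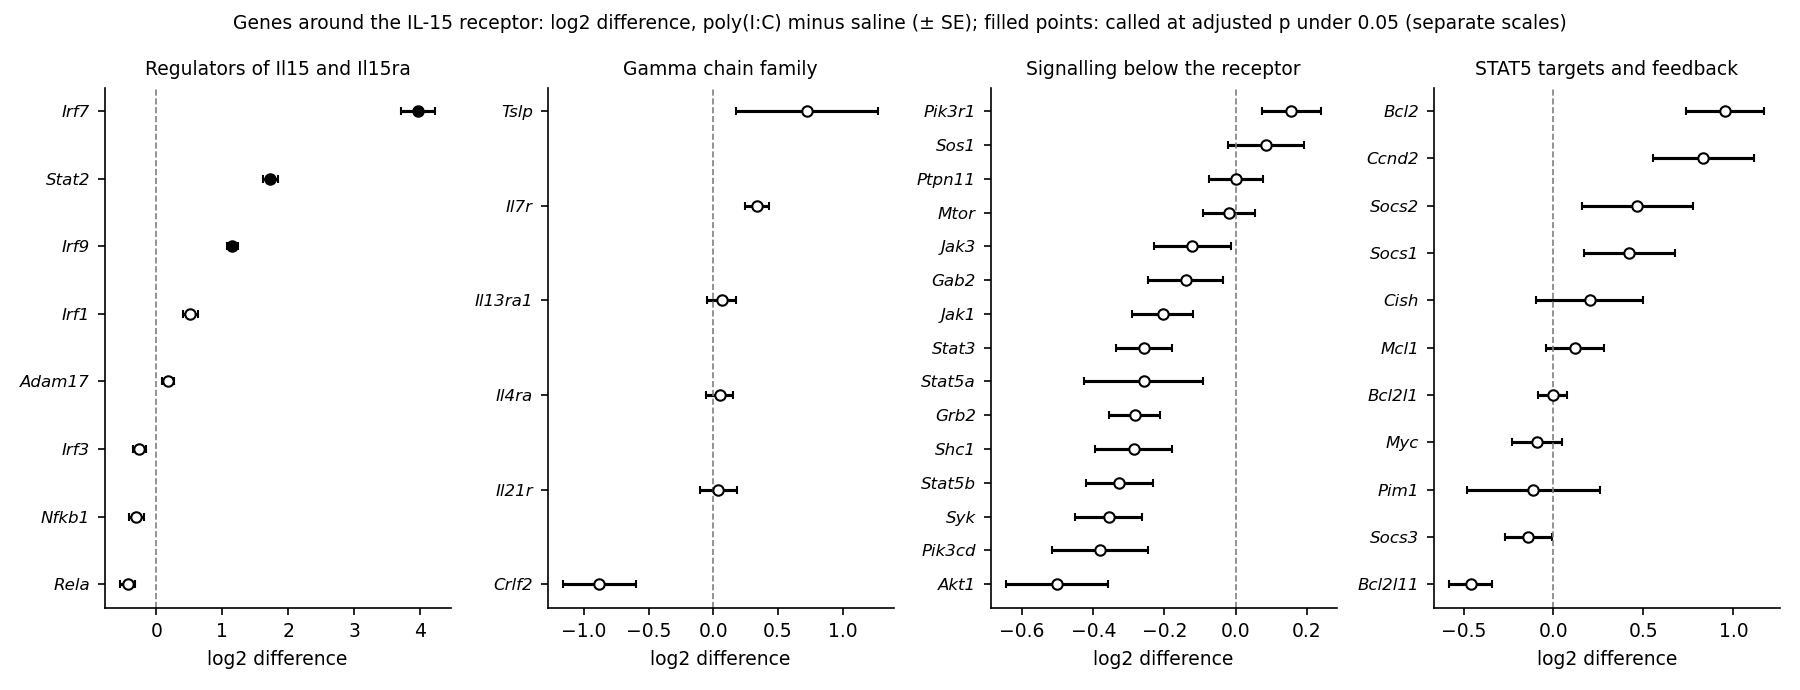
Log2 difference, poly(I:C) minus saline, with its SE (x axis, own scale in each panel) for the tested genes of 4 lists around the IL-15 receptor; filled points were called by edgeR at an adjusted p under 0.05. In the list of regulators, Irf7, Stat2 and Irf9 are called and higher, and no gene is called in the other lists.

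Markers of NK and T cells, which can respond to presented IL-15, had low summed levels, though not every such gene had few reads. The NK cell marker Klrd1 had 199, 443 and 482 counts with poly(I:C) and 437, 660 and 606 counts in saline. The libraries were enriched for CD11b-positive cells, so the sums do not measure how many such cells the cerebellum held. The summed level of 12 NK cell markers was 17.4, 34.6 and 37.5 CPM with poly(I:C) and 53.5, 30.0 and 27.7 CPM in saline (replicates 1, 2 and 3). Saline replicate 1 was highest, with 17.9 CPM of its sum from the granule gene Nkg7 alone, and poly(I:C) replicate 1 was lowest. The sum of 13 T cell markers was 14.8, 6.53 and 8.74 CPM with poly(I:C) and 19.3, 8.86 and 12.6 CPM in saline, with its largest part in every library from Cd4, which macrophages can also express. The T cell receptor complex gene Cd3e had 0, 0 and 1 counts with poly(I:C) and 0, 4 and 2 counts in saline, and Ncr1, a receptor gene of NK cells, had between 0.710 and 1.58 CPM with poly(I:C) and between 0.462 and 2.07 CPM in saline. The sums of 8 dendritic cell markers, which mark another presenting cell, were between 36.5 and 49.2 CPM with poly(I:C) and between 45.3 and 57.3 CPM in saline. Of the T cell markers, Cd8b1 and Bcl11b had 0 counts in every poly(I:C) library and at most 1 count in a saline library. Others had reads in every library: Lck had 30, 60 and 55 counts with poly(I:C) and 59, 64 and 68 counts in saline. Of the 4 tested T cell markers 1 had a positive log2 difference, Cd247 at 0.83 (SE 0.59), and Cd5 had -1.40 (SE 0.58). The part of lymphocytes or dendritic cells in the levels of the members was not tested.

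Of 10 tested NK cell markers 0 were called by edgeR and 3 had an unadjusted p under 0.05, with a median log2 difference of -0.10. Of 4 tested T cell markers 0 were called by edgeR and 1 had an unadjusted p under 0.05, with a median of -0.38. The share of all tested genes under that unadjusted p was not counted. The sign of the NK cell median depended on the libraries: leaving out saline replicate 1 gave 0.42, leaving out poly(I:C) replicate 1 gave 0.15, and leaving out both gave 0.85, where 8 of 10 markers had positive differences. It was 0.37 with limma-voom and sample quality weights, and between -0.51 and -0.16 when any one of the other libraries was left out. The T cell median stayed negative, between -0.98 and -0.17, when 1 library was left out. Klrk1, the activating receptor NKG2D, averaged 3.81 ± 0.867 CPM with poly(I:C) and 0.843 ± 0.359 CPM in saline (log2 difference 2.17, SE 0.40, edgeR adjusted p = 0.0752). It was called higher by DESeq2, by limma-voom, without saline replicate 1 (edgeR adjusted p = 0.0340), and with replicate 1 of both groups left out (edgeR adjusted p = 0.0214). In that order, those fits called 1005, 2876, 183 and 569 genes over all genes, against 141 in the main fit. Klrk1 was not called when any one of the other libraries was left out. Klrd1, the most abundant NK cell marker in 5 of the 6 libraries, averaged 10.9 ± 4.53 CPM with poly(I:C) and 16.7 ± 3.04 CPM in saline (edgeR adjusted p = 0.316). Nkg7 had 0.511 to 1.27 CPM with poly(I:C) and 17.9, 2.40 and 1.68 CPM in saline replicates 1, 2 and 3 (log2 difference -2.90, SE 0.98, edgeR adjusted p = 0.188), and DESeq2 called it lower (log2 difference -2.92, DESeq2 adjusted p = 0.00650).

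**Figure D4:**
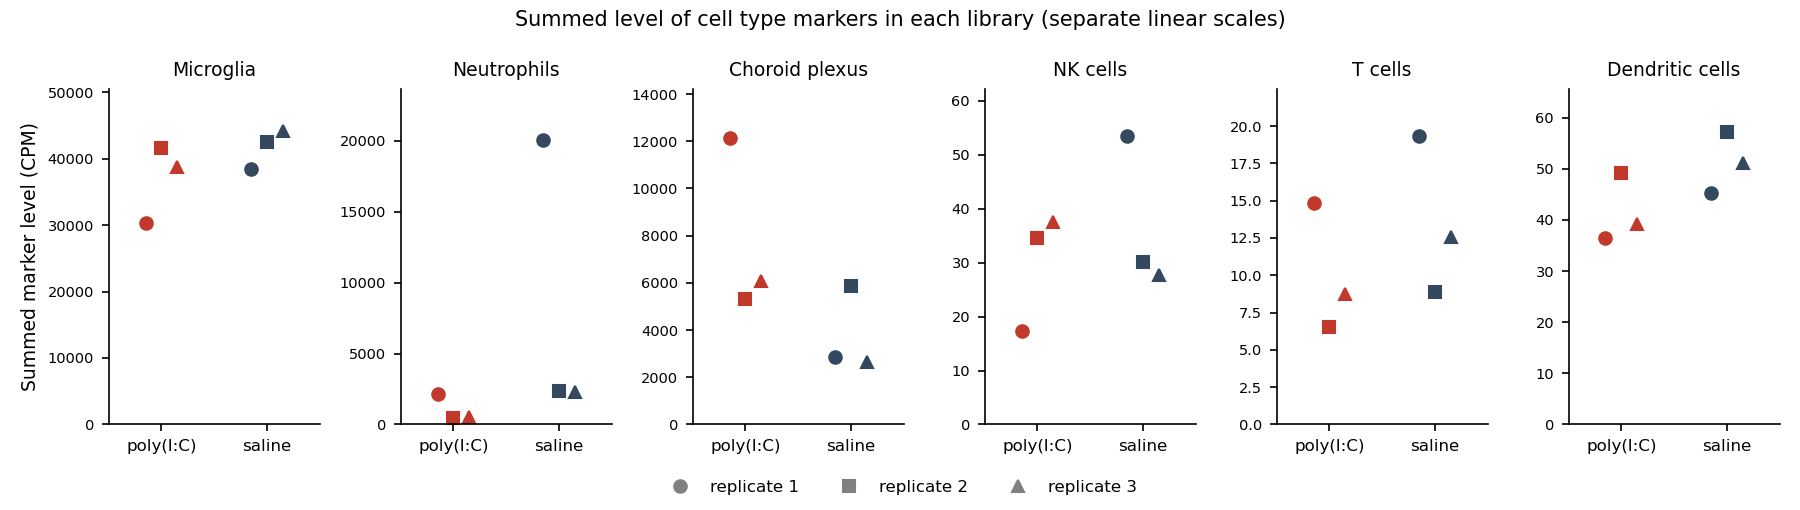
Summed level in CPM (y axis, linear, from 0, with its own scale in each panel) of the markers of 6 cell types in the 3 poly(I:C) and 3 saline libraries (x axis); symbols are replicates 1, 2 and 3. Neutrophil markers peak in saline replicate 1 at 20045 CPM, choroid plexus markers in poly(I:C) replicate 1 at 12158 CPM, and NK cell markers reach at most 53.5 CPM, in saline replicate 1.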

How the data were processed

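Cerebella of perfused mice were homogenised, myelin was removed on Percoll, CD11b-positive cells were enriched on magnetic columns, and full-length cDNA was amplified and made into Nextera XT libraries, per the labels' protocols. The authors deposited raw read counts per gene symbol, 1 column per library. The submitters' processing notes name fastp, HISAT2, HTSeq and build GRCm39; versions, annotation and strand setting were not stated. The libraries do not mark strand, so reads of overlapping genes cannot be told apart, and counts are of PCR-amplified reads.

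Genes were filtered by filterByExpr (14727 of 23491 kept), scaled by TMM and tested with edgeR 4.0.16 in R 4.3.3 (quasi-likelihood F test, 6 libraries, no covariate), with Benjamini-Hochberg adjustment over all tested genes and a threshold of 0.05. The SE of a log2 difference is its size over the root of F. The code was tested on simulated data. CPM use TMM-scaled totals. Exon lengths (GENCODE M21) and promoters (RefSeq) are on GRCm38.

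The members and lists were chosen with earlier results of these data known; 1 gene of the regulator list is not reported here and is left out of that list's counts and median. Named were the members, the called and up to 4 top-ranked genes of each pathway list, leading NK and T cell markers, and the 3 genes most correlated with each member, among those with a mean of at least 5 CPM. Il2ra, Il4ra, Il21r, Il21, Il7, Il4, Il9r, Cd3e, Cd8b1, Bcl11b, Lck, Cd247, Cd5, Ncr1, Klrk1, Gzmb, Nkg7, Cish, Jak1 and Jak3 were added after their values were seen. Alternatives were other scalings and filters, DESeq2 1.42.0 without the gene filter, limma-voom with sample quality weights (limma 3.58.1), a replicate block and left-out libraries. Using the longest transcript as gene length was added after seeing the data.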

Additional observations from a re-analysis of the deposited data

How the results depend on the processing

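The alternative fits reuse the same libraries, and the members' values in them are a description. The log2 difference of Il15ra lay between 1.07 and 1.20 over 15 such fits, with 1.20 from total-count scaling. That of Il2rb ranged from -0.90 to -0.31 when 1 library was left out and was -0.18 with replicate 1 of both groups left out; the filter of 5 CPM in 3 libraries removed Il2rb, so no value exists there. Counts of called genes depended on the fit and on the libraries in it. Over all genes there were 141 calls (130 higher and 11 lower), and 51 to 183 when 1 library was left out. With replicate 1 of both groups left out there were 569 (355 higher and 214 lower). DESeq2 gave 1005 (557 higher and 448 lower). It was run without the gene filter, so tool and filter changed together. Limma-voom gave 2876 of 14727 genes (1268 higher and 1608 lower). It was run with sample quality weights, so tool and weighting changed together. The list counts that follow are to be read against these totals. In the gamma chain family list 2 genes were called by DESeq2 (Il2ra higher and Crlf2 lower), 2 by limma-voom, and 0 to 1 when 1 library was left out. Il2ra did not pass the filter of the main fit, and edgeR without a filter called 0 genes of this list. Among signalling genes DESeq2 called 2 and limma-voom 4, all lower. Among targets each of these fits called 3 (2 higher and 1 lower). Among regulators DESeq2 called 5 (4 higher and 1 lower) and limma-voom 8 (5 higher and 3 lower). Among NK cell markers DESeq2 called 2 (Klrk1 higher and Nkg7 lower), limma-voom and the fit with replicate 1 of both groups left out each called 2 (Klrk1 and Gzmb, both higher), and 0 to 1 were called when 1 library was left out. The causes were not tested. Same-numbered replicates did not all deviate together (correlations of 0.17, -0.063 and 0.27 for numbers 1, 2 and 3), so the numbers were not taken as pairs; with a replicate block 260 genes were called over all genes, and no member's call changed. The spread between 3 libraries limits the signalling chains, and Il2rb also rests on few reads.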
